A study of Mus musculus with 11 samples.

Results

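The genes described here are 10 components of bone morphogenetic protein (BMP) signalling in mouse bone marrow cells sorted as stromal: the ligands Bmp2 and Bmp4, the receptor Bmpr1a, the secreted antagonists Grem1, Nog and Chrdl1, the feedback inhibitors Smad6, Smad7 and Bambi, and the target gene Id1. They were taken by gene name, and all 10 were listed in each of the 3 deposited tables, among 16507 genes in the adult table, 14267 in the Sca1 table and 14910 in the Igf1r knockout table. BMP ligands bind pairs of type I and type II receptor kinases on the cell surface, and the receptors phosphorylate Smad proteins that enter the nucleus and switch on genes such as Id1. Antagonists bind the ligand outside the cell, while inhibitory Smads and the kinase-lacking pseudoreceptor Bambi, all of them induced by the pathway in many cells, dampen it from within. In skeletal tissue the pathway is known for driving cartilage and bone formation, and Grem1 is a known marker of skeletal stem and stromal cells in mouse marrow.

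PolyA RNA was sequenced from 11 sorted samples in 4 groups. Adult wild-type cells were sorted as PDGFRa+CD51+ (3 libraries). Igf1r knockout cells came from Cre-positive mice and were sorted as PDGFRa+Sca1+ (3 libraries), and the labels name neither the Cre line nor their age. Perinatal wild-type cells were sorted as PDGFRa+Sca1- (2 libraries, numbered 2 and 3) or as PDGFRa+Sca1+ (3 libraries, Cre-negative by title). The last of these groups was the reference of every comparison: it is called perinatal against the adult cells, labelled Sca1-positive against the labelled Sca1-negative cells, and control against the knockouts. The labels do not say if the replicates are separate animals. The p-values therefore describe sample-to-sample spread, part of which may be technical.

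Libraries held 13412316 to 23782217 counts, so 3 counts, used as the floor of detection, were worth 0.126 to 0.224 CPM (counts scaled to a common library total), which covers counting error only. Reference libraries 2 and 3 recurred in each table, their counts equal in at least 97.9% of the genes shared, so the comparisons are not independent of each other, whereas reference library 1 of the adult table and of the knockout table were different libraries with equal counts in 1.72% of genes, although the labels give them 1 sample. Ly6a, which encodes Sca1, went against the Sca1 labels, with 10159 and 9112 counts in labelled Sca1-negative libraries against 239 and 145 counts in libraries 2 and 3 labelled Sca1-positive. In the knockout table Ly6a had 17051, 12936 and 22125 counts in knockout libraries and 8624, 239 and 145 counts in control libraries, so control 1 was Ly6a-high and controls 2 and 3 were Ly6a-low. Summed CPM of 11 cartilage markers was 354 and 460 in labelled Sca1-negative libraries against 6020 and 7110 in labelled Sca1-positive libraries, and that of 9 fibroblast progenitor markers was 6450 to 7250 against 1360 to 1630. Adult libraries summed to 25600 to 28800 CPM over 11 macrophage markers, against 25.3 to 31.5 CPM in perinatal libraries, and Pdgfra, the receptor gene of the sort, was at 15.2, 13.4 and 14.4 CPM in adult and 279, 235 and 277 CPM in perinatal libraries, while Itgav, which encodes CD51, was at 288, 271 and 305 CPM in adult and 51.9, 47.6 and 48.9 CPM in perinatal libraries. Rich in macrophage transcripts and low in Pdgfra, the adult libraries thus went against the PDGFRa+ part of their label. What share of the adult cells was stromal was not tested. Igf1r had 182, 80 and 77 counts in knockout libraries and 599, 548 and 444 counts in controls (log2 fold change -2.55, SE 0.34, edgeR adjusted p = 0.0816). Igf1r was called with DESeq2 (adjusted p = 3.95e-09), and by edgeR without knockout 1 (adjusted p = 0.0176) or without control 1 (adjusted p = 0.0279).

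Promoter sequences (250 bases before to 50 after the transcript start) were available from RefSeq on GRCm38.p6 for 4 of the 10 genes, Bmp4, Bmpr1a, Grem1 and Smad6. Shown 5′ to 3′ on the gene's strand are those of Grem1 (chr2:113758599-113758898, minus strand) and Smad6 (chr9:64022010-64022309, minus strand), the members called higher in adult cells, and that of Bmp4 (chr14:46390620-46390919, minus strand), which had a higher level per transcript length than Bmp2 in perinatal cells. Capitals mark GTCT, the short Smad-binding sequence, or its reverse complement AGAC, and the GC-rich Smad sequence GGCGCC.
Grem1: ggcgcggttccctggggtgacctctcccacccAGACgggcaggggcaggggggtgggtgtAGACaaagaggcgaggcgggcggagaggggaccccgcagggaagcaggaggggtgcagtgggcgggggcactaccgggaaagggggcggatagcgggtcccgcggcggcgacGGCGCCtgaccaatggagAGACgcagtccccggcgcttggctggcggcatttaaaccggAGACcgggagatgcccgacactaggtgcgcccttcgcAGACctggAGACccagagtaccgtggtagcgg
Smad6: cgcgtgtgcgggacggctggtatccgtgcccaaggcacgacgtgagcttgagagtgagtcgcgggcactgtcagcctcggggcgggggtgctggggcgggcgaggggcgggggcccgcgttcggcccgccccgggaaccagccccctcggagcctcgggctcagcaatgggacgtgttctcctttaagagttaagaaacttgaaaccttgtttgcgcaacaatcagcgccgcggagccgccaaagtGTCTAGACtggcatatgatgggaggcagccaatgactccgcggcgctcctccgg
Bmp4: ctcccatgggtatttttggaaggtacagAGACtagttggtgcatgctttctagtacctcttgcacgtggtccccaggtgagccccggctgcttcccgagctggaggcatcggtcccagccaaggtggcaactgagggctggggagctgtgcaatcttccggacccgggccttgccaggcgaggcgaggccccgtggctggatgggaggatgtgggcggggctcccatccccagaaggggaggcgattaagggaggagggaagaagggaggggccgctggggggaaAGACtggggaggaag
Grem1 held 6 matches to GTCT on either strand and 1 to GGCGCC, Bmp4 held 2 to GTCT and 0 to GGCGCC, and Bmpr1a, not shown, held 1 of each. Smad6 held 2 matches to GTCT, which abut as GTCTAGAC from 4 bases before the listed start. Over 32851 mouse promoters of the same length, GTCT occurred on either strand in 88.0%, GGCGCC in 11.9% and GTCTAGAC in 0.213%, the last counted after it was seen in Smad6. The composite BMP-response motif GGNGCCNNNNNGTCT, present in 0.344% of promoters on either strand, was found in none of the 4. These matches describe letters in a window and were not tested for binding.

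The adult comparison set PDGFRa+CD51+ cells against perinatal cells of the other gate, so age and sort gate differ together and cannot be told apart. Both ligands, the receptor, Chrdl1, Smad7, Bambi and Id1 were lower in adult cells, and the antagonist Grem1 was the single member with a large rise, 23.3-fold. Smad6 was slightly higher, and Nog did not pass the test. Of the 10 genes, 9 were called at an adjusted p under 0.05 with edgeR's quasi-likelihood test, 2 higher and 7 lower. That count is read against the background: 77.1% of the 13757 genes tested were called, 37.4% higher and 39.7% lower. The groups did not overlap in the same 9 genes, where 81.0% of all genes did not overlap, 45.3% higher and 35.7% lower. DESeq2 also called 9 of the 10, where 69.5% of genes were called, 32.7% higher and 36.8% lower. The median log2 fold change of the 10 was -1.81, against -0.0595 over all genes tested. Marker levels of several cell types differed between the same libraries. Beside the macrophage and Pdgfra levels above, summed CPM was 3250 to 3900 in adult and 28700 to 50700 in perinatal libraries over 10 osteoblast markers, and 51.8 to 86.6 in adult and 444 to 7110 in perinatal libraries over 11 cartilage markers. Over the 7 listed of 9 fibroblast progenitor markers it was 59.1 to 73.6 in adult and 1330 to 5480 in perinatal libraries. Perinatal library 1 stood apart from perinatal libraries 2 and 3 in these sums. Cartilage markers were at 444 CPM in library 1 against 6010 and 7110 CPM, and osteoblast markers at 28700 against 49800 and 50700 CPM. Fibroblast progenitor markers were at 5480 CPM in library 1 against 1330 and 1610 CPM. Endothelial markers (6) summed to 19.8 to 24.8 CPM in adult and 46.2 to 108 CPM in perinatal libraries. Mural markers (6) summed to 921 to 1500 and 203 to 332 CPM, and erythroid markers (7) to 0.0746 to 0.289 and 771 to 1660 CPM, in the same order. Most of the adult mural sum was Acta2, at 858 to 1450 CPM in adult and 87.6 to 155 CPM in perinatal libraries. Of the 6 mural markers 1 was called higher, 3 lower and 2 not called in adult cells. The sums of marrow stroma markers (7) overlapped, at 314 to 643 and 384 to 850 CPM. Much of that sum was Cxcl12, at 255 to 571 CPM in adult and 191 to 581 CPM in perinatal libraries. Of the 7 markers 4 were called lower, 0 higher and 3 not called in adult cells. Lepr, for example, was at 0.373 to 0.695 CPM in adult and 30.4 to 51.1 CPM in perinatal libraries. The part of these levels in the differences was not tested. In bulk RNA, fewer cells of a type and less RNA per cell cannot be told apart.

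Bmp2, a ligand that drives bone formation (chr2:133552159-133562885, plus strand), was at 4.92, 3.65 and 3.73 CPM in adult libraries and 31.1, 45.3 and 60.4 CPM in perinatal libraries. Every adult library lay below every perinatal one, a 13.4-fold lower level (log2 fold change -3.74, SE 0.29, edgeR adjusted p = 1.80e-05). Bmp4, the closely related ligand of the same receptors (chr14:46383520-46390669, minus strand), was at 17.3, 34.8 and 35.2 CPM in adult libraries and 109, 95.7 and 112 CPM in perinatal libraries. Adult library 1 was the lowest, the groups did not overlap, and Bmp4 fell by 2.13 on the log2 scale (SE 0.27, edgeR adjusted p = 0.000202). Bmpr1a, which encodes a type I receptor for both ligands (chr14:34410734-34503341, minus strand), was at 26.4, 35.6 and 30.8 CPM in adult libraries and 64.3, 59.9 and 60.1 CPM in perinatal libraries. It had the smallest fall among the 7 lower genes, 1.26 on the log2 scale (SE 0.13, edgeR adjusted p = 8.11e-05).

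The antagonists did not share a direction. Grem1, which encodes gremlin 1, a secreted protein that binds BMP2 and BMP4 (chr2:113746164-113758646, minus strand), was at 267, 198 and 194 CPM in adult libraries (4618, 3357 and 2604 counts) and 4.18, 9.06 and 10.2 CPM in perinatal libraries (62, 157 and 147 counts). The lowest adult library thus stood far above the highest perinatal library, and the log2 fold change was 4.54 (SE 0.35, edgeR adjusted p = 1.69e-05). Against perinatal library 1 alone, leaving out libraries 2 and 3, which are Ly6a-low in the other comparisons, it was 5.47. Ly6a was not listed in the adult comparison, so its level in this library 1 is not known. Chrdl1, which encodes the antagonist chordin-like 1 (chrX:143285674-143394262, minus strand), lay the other way, with 0.695, 1.06 and 0.969 CPM in adult libraries (12, 18 and 13 counts) and 54.7, 29.8 and 35.1 CPM in perinatal libraries. Its 52.8-fold lower level was the largest fall among the 10 genes (log2 fold change -5.72, SE 0.32, edgeR adjusted p = 4.21e-06). Nog, which encodes the antagonist noggin (chr11:89300638-89302332, minus strand), was low everywhere, with 2.14, 4.18 and 4.40 CPM in adult and 0.472, 3.29 and 2.14 CPM in perinatal libraries. The groups overlapped, and its log2 fold change of 0.57 had a 95% confidence interval of -0.83 to 1.97 (edgeR adjusted p = 0.408). Against perinatal library 1 alone, which had 7 Nog counts and is then assumed to vary like the adult libraries, the log2 fold change was 2.64 (edgeR adjusted p = 0.0142), in a fit that called all 10 genes and 74.4% of genes tested, 36.7% higher and 37.7% lower.

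Feedback inhibitors and the target gene divided too. Smad6, an inhibitory Smad known for blocking BMP type I receptors (chr9:63953076-64022059, minus strand), was at 13.4, 12.8 and 14.4 CPM in adult and 6.41, 7.62 and 8.23 CPM in perinatal libraries. The groups did not overlap and the change was 1.51-fold (log2 fold change 0.60, SE 0.18, edgeR adjusted p = 0.0153). Smad7, the inhibitory Smad that also acts on TGF-beta and activin receptors, was at 24.9, 17.0 and 22.1 CPM in adult and 40.3, 55.0 and 54.1 CPM in perinatal libraries, and it fell by 1.49 (log2, SE 0.20, edgeR adjusted p = 0.000319), opposite to Smad6. Bambi was at 4.28, 4.89 and 4.70 CPM in adult libraries and 49.0, 108 and 100 CPM in perinatal libraries. Id1, an inhibitor of helix-loop-helix transcription factors and a direct Smad target (chr2:152736251-152737410, plus strand), was at 3.82, 3.95 and 3.65 CPM in adult libraries and 40.4, 88.8 and 77.1 CPM in perinatal libraries. In both genes the adult libraries were close together, and perinatal library 1 was below libraries 2 and 3. Bambi was 22.4-fold lower (log2 fold change -4.48, SE 0.33, edgeR adjusted p = 1.36e-05) and Id1 21.7-fold lower (log2 fold change -4.44, SE 0.32, edgeR adjusted p = 1.22e-05). Against perinatal library 1 alone the log2 fold changes were -3.65 for each.

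**Figure D1:**
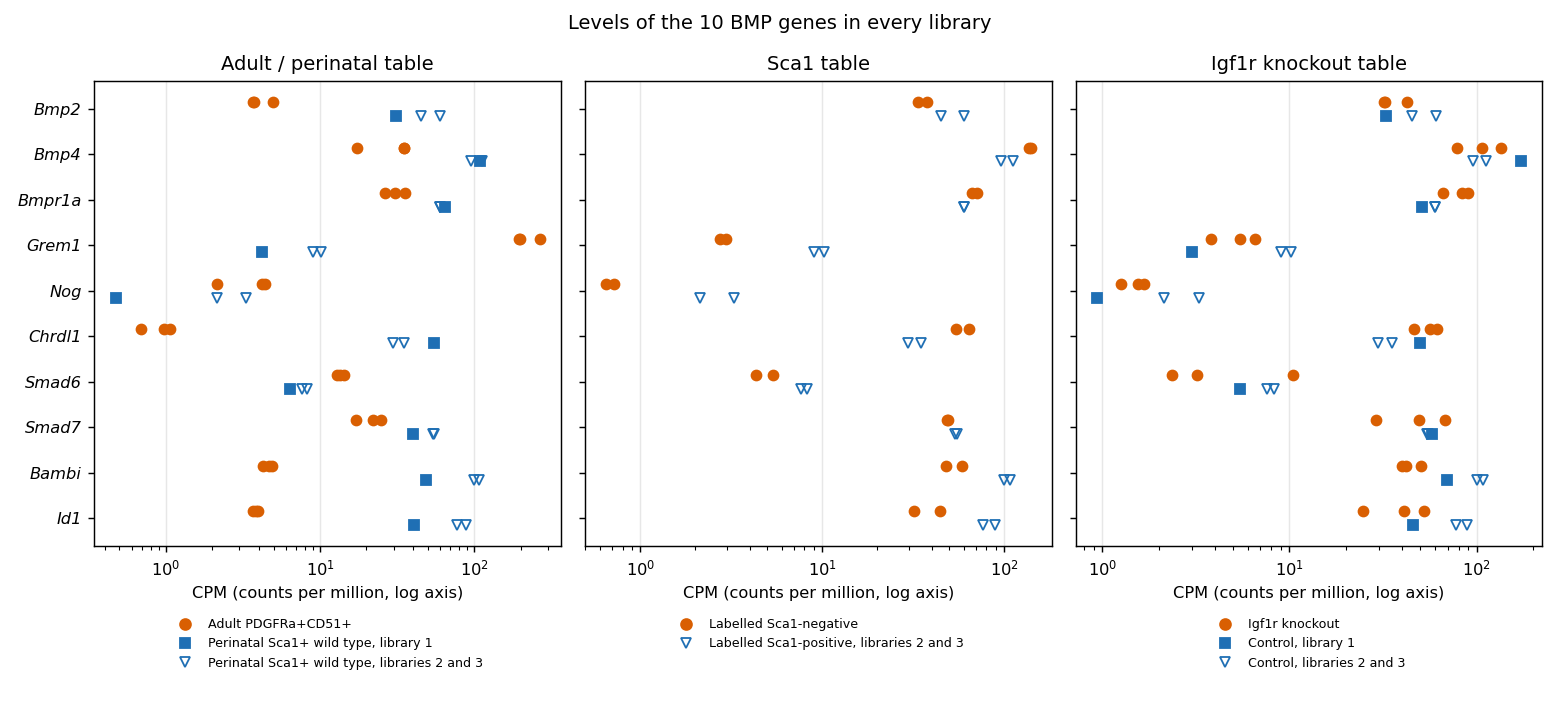
Level of each of the 10 genes (rows) in every library as CPM on a log axis, with 1 panel per deposited table. Filled circles are adult, labelled Sca1-negative or Igf1r knockout libraries, the filled square is reference library 1 and open triangles are reference libraries 2 and 3. Grem1 in adult libraries lies at 194 to 267 CPM, against 4.18 to 10.2 CPM in perinatal libraries, while Chrdl1 lies at 0.695 to 1.06 CPM in adult and 29.8 to 54.7 CPM in perinatal libraries.

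Levels of different genes were compared per transcript length, with the length-normalised TPM values of the authors. In adult libraries Grem1 came first at 95.7 ± 19.1 TPM (SD, n = 3), followed without overlap by Bmp4 at 23.4 ± 8.31 TPM. Smad7 (11.1 TPM) and Bmpr1a (10.9 TPM) overlapped each other, and below them stood Id1 (7.79 TPM) and Smad6 (6.27 TPM). Nog, Bmp2 and Bambi followed at 2.83, 1.85 and 1.67 TPM, Bmp2 overlapping both of the others, and Chrdl1 was last at 0.446 ± 0.0858 TPM. Perinatal libraries had another order: Id1 (151 ± 58.5 TPM) and Bmp4 (84.3 ± 5.98 TPM) led with overlapping ranges. Bambi, Bmp2, Smad7, Chrdl1 and Bmpr1a followed at 13.9 to 22.7 TPM, each overlapping its neighbour, and Grem1 (2.60 ± 1.24 TPM) and Nog (2.13 ± 1.54 TPM) were lowest and overlapped. Grem1 therefore held the first place among these 10 transcripts in adult cells and the ninth in perinatal cells.

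**Figure D2:**
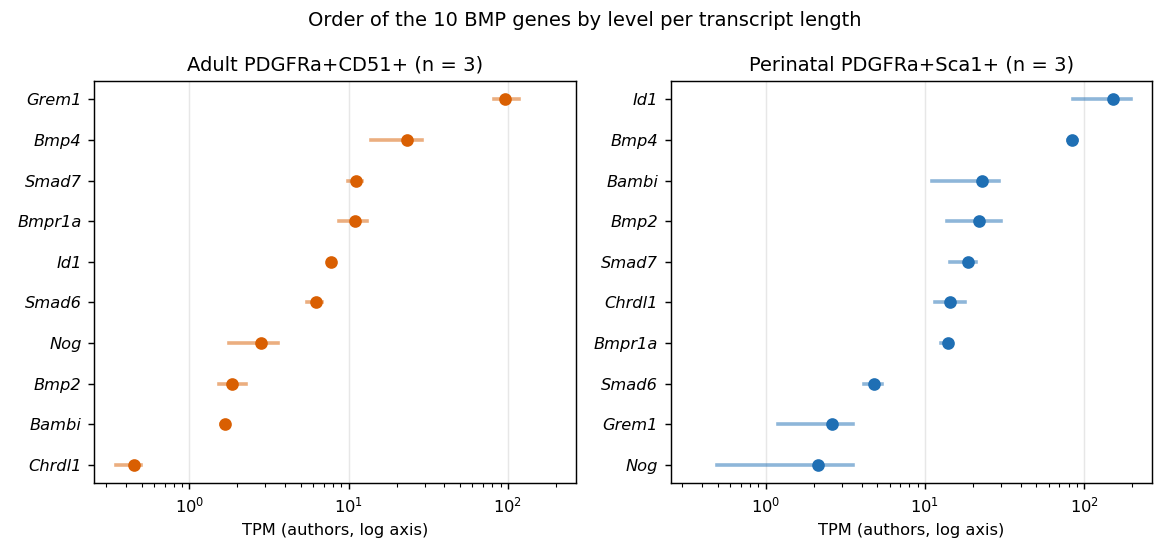
Mean TPM of the authors on a log axis (points) with the range over 3 libraries (lines), the genes ordered by mean within adult (left) and perinatal (right) libraries. Grem1 leads at 95.7 TPM in adult libraries and is ninth at 2.60 TPM in perinatal libraries.

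The rest of the pathway was described from a list of 48 other BMP genes by role, of which 47 were tested. In adult cells 7 were higher and 34 lower, where 77.1% of all genes tested were called, 37.4% higher and 39.7% lower. The median log2 fold change of the list was -1.74, against -0.0595 over all genes. The 3 genes at 0 in all adult libraries have bounds below that median, so setting them at their bounds could not move it. Among 10 other ligands 1 was higher and 7 lower: Bmp3, an antagonistic family member, had no count in any adult library and 12.2 to 14.3 CPM in perinatal libraries (at least 84.28-fold lower against the floor of 3 counts per library). Gdf10, its close relative, was at 42.6, 82.5 and 121 CPM in perinatal libraries, with 0, 0 and 0.0746 CPM in adult libraries, which is under the floor. Bmp7, a ligand first isolated from bone, was at 0.174, 0.0589 and 0 CPM in adult and 9.58, 19.3 and 27.3 CPM in perinatal libraries.

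Among 9 other receptors and co-receptors 7 were lower, among them Acvr2a, a type II receptor shared with activins (log2 fold change -1.08, SE 0.19), and Rgma, a membrane co-receptor (-2.37, SE 0.42). Acvrl1, a type I receptor of endothelium, was not called (-0.30, SE 0.20, edgeR adjusted p = 0.204). Bmpr2, the BMP-selective type II receptor, was called higher and was at 38.7, 44.6 and 43.8 CPM in adult libraries and 5.26, 5.95 and 6.02 CPM in perinatal libraries, a rise of 2.61 on the log2 scale (SE 0.14, edgeR adjusted p = 3.46e-06). It thus changed against Bmpr1a, its type I partner. Of 11 other antagonists tested 2 were higher and 9 lower, including Chrd, which encodes chordin (log2 fold change -4.98, SE 0.23), Nbl1 (-3.31, SE 0.24) and Bmper (-3.11, SE 0.31), and Sostdc1 had no count in adult libraries (at least 259.2-fold lower). All 9 other target genes were lower. Id3, a close relative of Id1, was at 42.7, 67.9 and 59.2 CPM in adult and 702, 929 and 1060 CPM in perinatal libraries, a log2 fold change of -4.26 (SE 0.25, edgeR adjusted p = 5.00e-06). Tmem100, a BMP target in endothelium, was at 0.0579, 0.118 and 0.298 CPM in adult libraries (1, 2 and 4 counts), under the floor of 3 counts in adult libraries 1 and 2, and 146, 56.0 and 58.4 CPM in perinatal libraries. Id2 fell by 1.26 (SE 0.12). Among 8 receptor-regulated Smads, Smad4 and regulators 3 were higher and 2 lower: the Smad ubiquitin ligases Smurf2 (1.48, SE 0.11) and Smurf1 (1.47, SE 0.18) rose and Smad5 fell by 0.65 (SE 0.12).

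**Figure D3:**
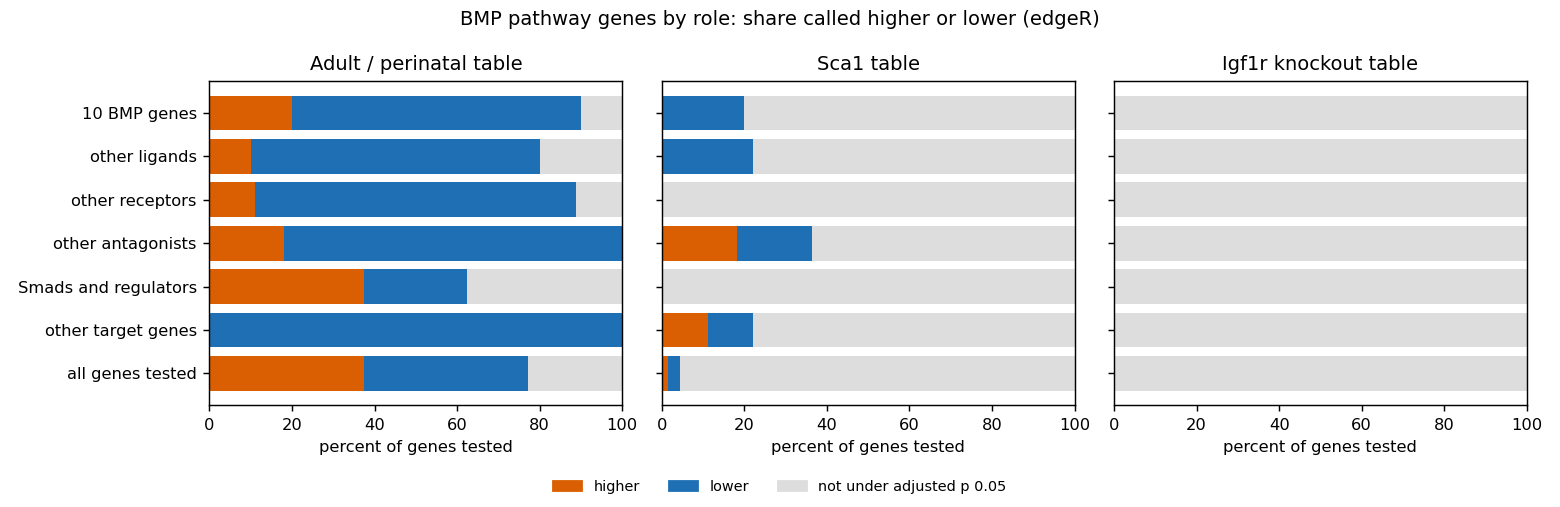
Share of genes tested in each role list that were called higher (orange) or lower (blue) in adult, labelled Sca1-negative or knockout cells, or not called (grey), with all genes tested in the bottom bar. All 9 other target genes were lower in adult cells; in the knockout table no listed gene was called.

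Cells labelled Sca1-negative were compared with libraries 2 and 3 labelled Sca1-positive, 2 against 2. Grem1 and Bambi were lower in the cells labelled Sca1-negative, Id1 and Nog had lower levels and Chrdl1 a higher level without passing the threshold, and neither ligand was called. With edgeR's quasi-likelihood test 2 of the 10 genes were called, both lower, where 4.41% of 13529 genes were called 1.63% higher and 2.79% lower. None of the 10 overlapped between the groups, 3 higher and 7 lower, where 49.8% of all genes did not overlap, 22.2% higher and 27.6% lower. The median log2 fold change of the 10 was -0.60, against 0.0107 over all genes tested. The groups went against their labels in Ly6a, and the cartilage and fibroblast progenitor markers given above differed between the same libraries. Summed CPM over 10 osteoblast markers was 24100 to 28300 in labelled Sca1-negative libraries and 49800 to 50700 in labelled Sca1-positive libraries, with 8 of the 10 called lower. The part of these levels in the differences was not tested.

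Grem1 was at 2.75 and 2.96 CPM in labelled Sca1-negative libraries (42 and 41 counts) and 9.06 and 10.2 CPM in labelled Sca1-positive libraries, a 3.28-fold lower level (log2 fold change -1.72, SE 0.26, edgeR adjusted p = 0.0189). Bambi was at 47.7 and 59.1 CPM in labelled Sca1-negative libraries and 108 and 100 CPM in labelled Sca1-positive libraries (log2 fold change -0.93, SE 0.19, edgeR adjusted p = 0.0469). In both genes the gap between groups exceeded the spread within either. The calls were near the limit of this design. Bambi lost its call without Sca1-positive library 2 (edgeR adjusted p = 0.341) or library 3 (0.223), and Grem1 without library 3 (0.0609).

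Id1 was at 44.4 and 32.2 CPM in labelled Sca1-negative libraries and 88.8 and 77.1 CPM in labelled Sca1-positive libraries (log2 fold change -1.08, SE 0.23, edgeR adjusted p = 0.0548). Chrdl1 was at 54.2 and 64.3 CPM in labelled Sca1-negative libraries and 29.8 and 35.1 CPM in labelled Sca1-positive libraries (log2 fold change 0.90, SE 0.19, edgeR adjusted p = 0.0575), so this antagonist lay on the other side from Grem1. Both stood just above the threshold, and both were called with DESeq2 (adjusted p = 0.00211 for Id1 and 0.00991 for Chrdl1), which called 4 of the 10 genes where 7.23% of genes were called, 3.03% higher and 4.20% lower. Nog, the third antagonist, was at 0.721 and 0.651 CPM in labelled Sca1-negative libraries (11 and 9 counts) and 3.29 and 2.14 CPM in labelled Sca1-positive libraries (57 and 31 counts), with a log2 fold change of -1.94 and a 95% confidence interval of -3.04 to -0.84 (edgeR adjusted p = 0.0729).

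None of the ligands, the receptor and the inhibitory Smads was called. Bmp4 was at 137 and 140 CPM in labelled Sca1-negative libraries and 95.7 and 112 CPM in labelled Sca1-positive libraries (log2 fold change 0.45, edgeR adjusted p = 0.259), and Bmp2 at 37.8 and 33.6 CPM in labelled Sca1-negative libraries and 45.3 and 60.4 CPM in labelled Sca1-positive libraries (-0.53, edgeR adjusted p = 0.260). Smad6 was at 5.38 and 4.34 CPM in labelled Sca1-negative libraries and 7.62 and 8.23 CPM in labelled Sca1-positive libraries (-0.67, edgeR adjusted p = 0.239). Bmpr1a and Smad7 had the smallest differences, with 95% confidence intervals of -0.18 to 0.65 and -0.53 to 0.28 on the log2 scale. Per transcript length, Bmp4 (111 ± 3.39 TPM) stood above Id1 (83.2 ± 20.8 TPM) in labelled Sca1-negative libraries, whereas Id1 (184 ± 16.5 TPM) stood above Bmp4 (84.8 ± 8.36 TPM) in cells of the other label (SD, n = 2 each), in each case without overlap.

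Of 46 other pathway genes tested, 3 were higher and 5 lower in cells labelled Sca1-negative, where 4.41% of all genes tested were called, 1.63% higher and 2.79% lower. The median log2 fold change of the list was -0.0974, against 0.0107 over all genes. The antagonist list held 4 of the 8: Sostdc1, a secreted antagonist also known for acting on Wnt signalling, was at 15.4 and 11.7 CPM in labelled Sca1-negative libraries and 60.9 and 45.9 CPM in labelled Sca1-positive libraries (log2 fold change -1.94, edgeR adjusted p = 0.00956). Fstl1, encoding a follistatin-like secreted protein (1.23, edgeR adjusted p = 0.0279), and Fst, encoding follistatin, which binds activins and some BMPs (1.07, edgeR adjusted p = 0.0279), were higher, and Bmper was lower (-1.02, edgeR adjusted p = 0.0343). The ligands Bmp7 (-1.46, edgeR adjusted p = 0.0403) and Bmp5 (-1.13, edgeR adjusted p = 0.0404) were lower. Among target genes Dlx5, a homeobox gene of bone formation, was lower, at 6.89 and 8.89 CPM in labelled Sca1-negative libraries and 53.2 and 32.8 CPM in labelled Sca1-positive libraries (-2.41, edgeR adjusted p = 0.00824), and Tmem100 was higher (1.26, edgeR adjusted p = 0.0223). Without Sca1-positive library 2 the calls of Fst (edgeR adjusted p = 0.229), Fstl1 (0.280), Bmp5 (0.287), Bmper (0.335) and Tmem100 (0.143) were lost, and without library 3 those of Bmp7 (0.170), Fst (0.303), Fstl1 (0.206), Bmper (0.0924) and Tmem100 (0.0851).

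**Figure D4:**
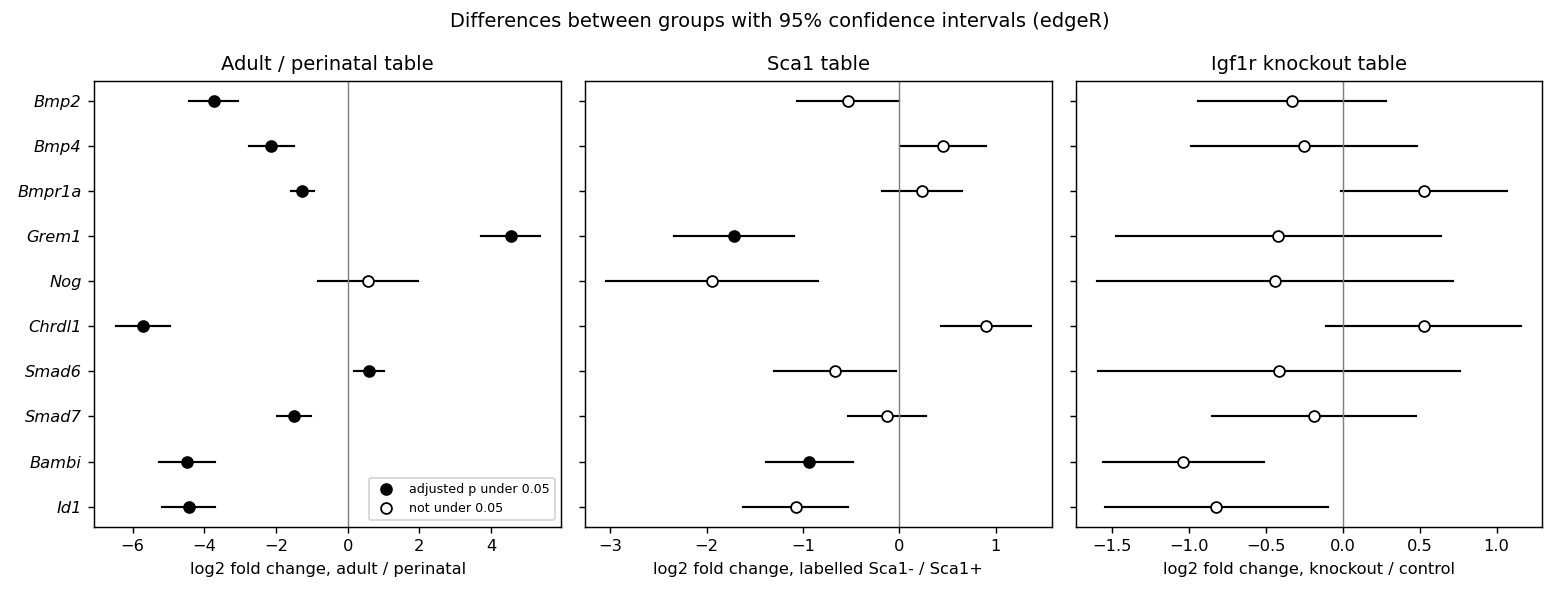
Log2 fold change of each gene (points) with its 95% confidence interval (lines) in adult over perinatal, labelled Sca1-negative over labelled Sca1-positive, and Igf1r knockout over control cells; filled points passed an adjusted p of 0.05 and the panels have different axes. Grem1 is at 4.54 in the adult panel and at -1.72 in the Sca1 panel, and all 10 points are open in the knockout panel.

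Igf1r knockout cells were compared with Cre-negative controls, so Cre itself and the deletion cannot be told apart. No member was called with edgeR's quasi-likelihood test, where 5 of 13590 genes, or 0.0368%, were called. These 5, named after their values were seen, were Msmp, the beta-globin genes Hbb-bt and Hbb-bs, and the alpha-globin genes Hba-a2 and Hba-a1, all lower in knockout cells. Bambi was the member nearest to a call, with a 2.05-fold lower level, and Id1 followed. At an unadjusted p under 0.05 there were 2 of the 10 genes, Bambi and Id1, where there were 2963 of all 13590 genes tested. DESeq2 called 1 of the 10, Bambi, where it called 6.97% of genes, 3.29% higher and 3.68% lower. The groups did not overlap in 2 of the 10, Bambi below and Bmpr1a above the controls, where 27.9% of all genes did not overlap, 15.4% higher and 12.6% lower. The median log2 fold change of the 10 was -0.374, against -0.0251 over all genes tested.

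Bambi was at 50.4, 41.7 and 39.8 CPM in knockout libraries and 69.4, 108 and 100 CPM in control libraries. All 3 knockout libraries were lower than all controls, with a log2 fold change of -1.04, a 95% confidence interval of -1.56 to -0.52 and an edgeR adjusted p of 0.176 (DESeq2 adjusted p = 0.00316). Id1 was at 52.3, 40.7 and 24.6 CPM in knockout libraries and 45.9, 88.8 and 77.2 CPM in control libraries (log2 fold change -0.82, 95% confidence interval -1.55 to -0.10, edgeR adjusted p = 0.201). Knockout 1 was above control 1 and below controls 2 and 3, and the other knockouts lay below every control. Against control 1 alone the log2 fold change of Bambi was -0.73 (edgeR adjusted p = 0.586) and that of Id1 -0.31 (edgeR adjusted p = 0.770), a fit with a single control that is assumed to vary like the knockouts and in which no gene was called.

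The same division of the controls ran through the antagonists. Grem1 was at 3.83, 5.43 and 6.52 CPM in knockout libraries, between control 1 at 3.01 CPM and controls 2 and 3 at 9.07 and 10.2 CPM (log2 fold change -0.42, edgeR adjusted p = 0.566). Nog was likewise at 1.67, 1.26 and 1.56 CPM in knockout libraries, between control 1 at 0.937 CPM and controls 2 and 3 at 3.29 and 2.15 CPM. Chrdl1 was at 56.4, 61.2 and 46.4 CPM in knockout libraries, with 49.7 CPM in control 1 against 29.9 and 35.2 CPM in controls 2 and 3 (log2 fold change 0.53, edgeR adjusted p = 0.278). The sign of the Grem1 and Nog values depended on which controls were used: against control 1 alone they were 0.76 (edgeR adjusted p = 0.611) and 0.61 (edgeR adjusted p = 0.738), and that of Chrdl1 was 0.07. Controls 2 and 3 are the Ly6a-low libraries. The cartilage markers summed to 260 to 446 CPM in knockouts, against 489 CPM in control 1 and up to 7120 CPM in the other controls. The osteoblast markers summed to 26300 to 29900 CPM in knockouts, 34600 CPM in control 1, and 49800 and 50700 CPM in controls 2 and 3. Of the 10 osteoblast markers 2 were lower in knockouts without overlap, where 12.6% of all genes tested were. Spp1, for example, was at 59.9 to 156 CPM in knockouts and 35.7 to 4630 CPM in controls. Erythroid markers (7) summed to 157 to 247 CPM in knockouts and 1240 to 1660 CPM in controls, control 1 included. The part of these levels in the differences was not tested.

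Bmpr1a was at 66.1, 83.3 and 90.1 CPM in knockout libraries and 51.2, 59.9 and 60.2 CPM in control libraries (log2 fold change 0.53, 95% confidence interval -0.01 to 1.07, edgeR adjusted p = 0.235). Every knockout library was above every control, by a margin that did not pass the test. Bmp4 was at 135, 107 and 78.5 CPM in knockout libraries and 173, 95.8 and 112 CPM in controls, and Bmp2 at 32.4, 42.6 and 32.0 CPM in knockout libraries and 32.8, 45.3 and 60.4 CPM in controls. The ligands' groups overlapped, with log2 fold changes of -0.25 (95% confidence interval -0.99 to 0.48) and -0.33 (-0.94 to 0.28). These intervals do not show that the levels were equal.

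The inhibitory Smads varied most among the knockouts themselves. Smad6 was at 10.4, 3.21 and 2.35 CPM in knockout libraries and 5.42, 7.62 and 8.24 CPM in controls, so knockout 1 was above and the other two knockouts below every control (log2 fold change -0.42, 95% confidence interval -1.59 to 0.76). Without knockout 1 the value was -1.27 (edgeR adjusted p = 0.0387), and in that fit Bambi (-1.10, edgeR adjusted p = 0.0265) and Bmpr1a (0.69, edgeR adjusted p = 0.0464) were called as well. These 3 of the 10 genes are read against the 3003 genes called in that fit, where 13590 genes were tested with all libraries. Smad7 was at 68.0, 49.2 and 29.1 CPM in knockout libraries and 57.9, 55.0 and 54.1 CPM in controls, and in this gene too knockout 1 was above all controls while the others were below them. Knockout 1 also had the highest Igf1r level of the knockouts, 8.20 CPM against 4.22 and 3.24 CPM in the others. A link between the Igf1r and Smad levels of this library was not tested. Leaving out control 1 gave 306 called genes with Bambi among them (-1.17, edgeR adjusted p = 0.0498).

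**Figure D5:**
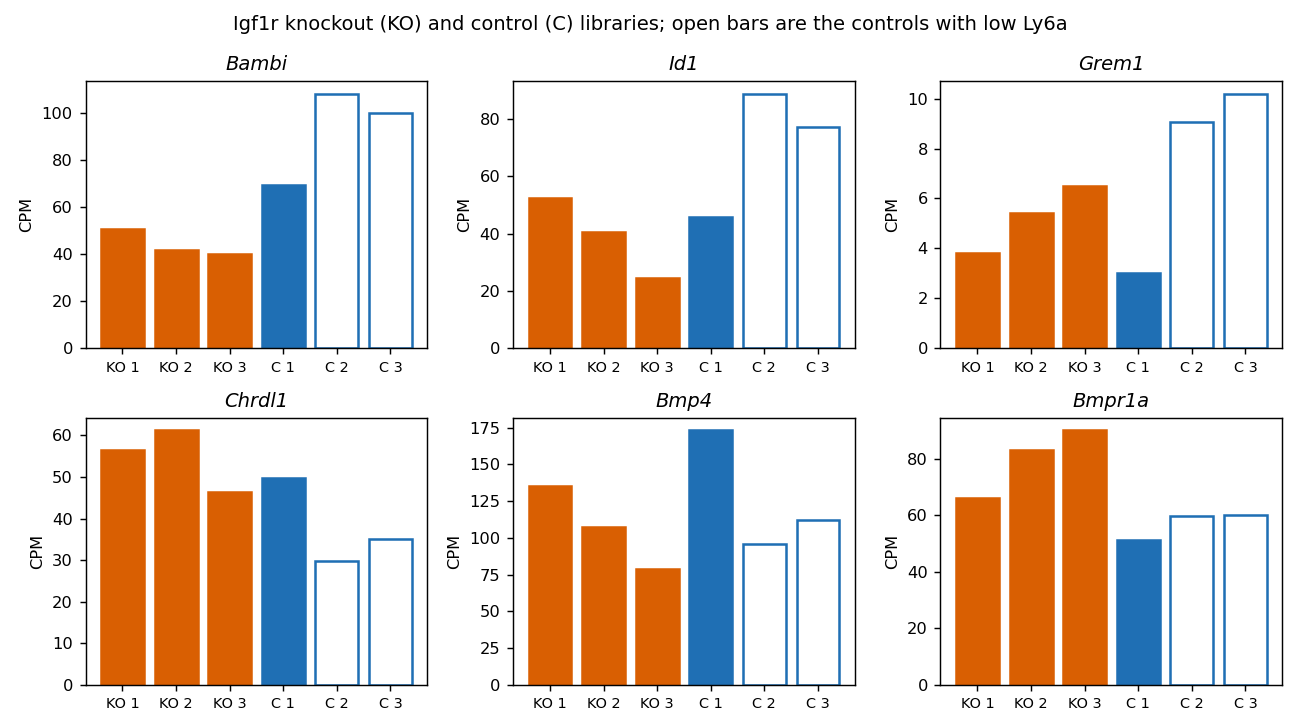
CPM of 6 of the genes in each Igf1r knockout library (orange, KO 1 to 3, left) and each control library (blue, C 1 to 3, right), on axes that start at 0; open bars are the controls with low Ly6a. Bambi is at 39.8 to 50.4 CPM in knockout libraries, below control 1 at 69.4 CPM and controls 2 and 3 at 108 and 100 CPM, and Grem1 in knockouts lies between control 1 and the other controls.

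Smad6 had the largest SD of log2(CPM + 1) over the 6 libraries of the knockout table among the 10 genes, 0.689. The genes most like it there, among 10245 with a mean of at least 5 CPM, were Lpcat1, Ykt6 and Rsph9, with Pearson's r of 0.997, 0.994 and 0.993 over the 6 libraries. Lpcat1, a phospholipid acyltransferase gene, was at 35.8, 23.8 and 22.3 CPM in knockout libraries and 28.4, 32.1 and 33.9 CPM in controls, and like Smad6 it was highest in knockout 1. These r values were picked as the highest of many and rest on 6 libraries, so they are a description.

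None of the 44 other pathway genes tested in the knockout table was called, where 0.0368% of all genes tested were called. An unadjusted p under 0.05 was found for 15 of the 44, where it was found for 2963 of all 13590 genes, and the median log2 fold change of the list was -0.224, against -0.0251 over all genes. The genes named in the Sca1 comparison had the same controls 2 and 3 here. Dlx5 was at 9.55, 4.53 and 4.25 CPM in knockout libraries, with 9.96 CPM in control 1 against 53.2 and 32.8 CPM in controls 2 and 3. Sostdc1 was at 21.7, 18.6 and 12.6 CPM in knockout libraries, with 15.8 CPM in control 1 against 60.9 and 46.0 CPM in controls 2 and 3. Tmem100 was at 120, 198 and 157 CPM in knockout libraries, all above control 1 at 110 CPM and controls 2 and 3 at 56.1 and 58.4 CPM.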

How the data were processed

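PolyA RNA was sequenced from mouse marrow cells sorted as stromal, and the 3 deposited tables were used, each by itself. Trimmomatic 0.32, mm10 and DESeq2 are listed, without their roles, per the submitters' processing notes; no source used here gives the aligner, counter, annotation or strand setting. The authors deposited whole-number counts per gene, which were tested, and TPM values, used only for the order of genes. Columns headed TPM in the knockout table hold log2 values, and the authors' own log2 fold changes and adjusted p-values are also deposited, per the file headers; these were not used. Bmp4 overlaps Gm15217 and Gm15222 and Bmpr1a overlaps Gm17110 on the other strand in GENCODE M21, and reads of such pairs cannot be told apart without strand. Gene coordinates are from GENCODE M21 (mm10).

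Genes were filtered with filterByExpr, scaled with TMM factors and tested with edgeR 4.0.16 in R 4.3.3 (glmQLFit, robust, then glmQLFTest; group as the only term), with Benjamini-Hochberg adjustment over all genes of a table and calls at an adjusted p under 0.05. The SE is the log2 fold change over the square root of F. CPM of single libraries are unscaled. Fits were run on simulated counts in which few genes changed and the spread was fixed. That does not show how they perform where most genes differ, as between adult and perinatal cells. Alternatives were median-of-ratios and upper quartile scaling, DESeq2 1.42.0, no low-count filter, a replicate block, each library left out, genes at 0 in a group left out, and reference library 1 alone. Same-numbered libraries of the knockout table deviated together (r = 0.268, 0.114 and 0.103 over 13590 genes), and with the number as a block no gene was called, against 5 without it. The 10 genes, the lists and the rule for named genes (the 10; up to 3 called genes per role list by smallest adjusted p; the 3 genes most like the most variable member in the knockout table) were chosen with earlier results of these data known. Bmper in the Sca1 table, Sostdc1 and Acvrl1 in the adult table and, in the knockout table, Dlx5, Sostdc1 and Tmem100 are named outside that rule, after their values were seen.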

Additional observations from a re-analysis of the deposited data

How the results depend on the processing

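In the adult comparison the 9 calls kept their direction and side of the threshold under all alternatives run. Upper quartile scaling moved the median of all genes by -0.129 and left Smad6 at 0.47 (edgeR adjusted p = 0.0393). Acvrl1, not called, was called against perinatal library 1 alone (-0.64, edgeR adjusted p = 0.0101). The replicate block changed no member's call there.

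Between the Sca1 labels, DESeq2 called 1012 genes, or 7.23%, and 4 members. With the replicate block edgeR called 1369 of 13529 genes and 5 members, adding Chrdl1 (adjusted p = 0.00895), Id1 (0.00282) and Nog (0.0363). Only 2 numbers are shared in that table, which does not establish a pairing (r of same-numbered deviations = 0.348). Leaving out 1 library gave 484 to 4835 genes and 0 to 7 members: 2257 genes and 7 members without Sca1-negative library 2, 4835 and 6 without Sca1-negative library 3, 491 and 1 without Sca1-positive library 2, and 484 and 0 without Sca1-positive library 3. The lone library is then assumed to vary like the other group, and the cause was not tested. With all libraries 13529 genes were tested, and each count of members is read against the genes called in its own fit.

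In the knockout table DESeq2 called 999 genes and 1 member, the replicate block 0 genes and 0 members, and control 1 alone as reference 0 genes and 0 members. Leaving out 1 library gave 0 to 3003 genes and 0 to 3 members: 3003 without knockout 1, 306 without control 1 and 0 without any of the others. With all libraries 13590 genes were tested. Values without a call changed sign for Smad7 without knockout 3 (0.044, in a range of -0.45 to 0.044 over libraries left out), for Bmp4 without control 1 (0.10, in a range of -0.45 to 0.10), and against control 1 alone for Nog (0.61), Grem1 (0.76) and Bmp2 (0.054). Acvrl1, not called there, ranged from -0.54 to 0.51 over libraries left out. Signs also changed for Sostdc1 (0.074) and Bmper (0.63) against control 1 alone. Dlx5 was called with DESeq2 (adjusted p = 0.00186), and by edgeR without knockout 1 (0.0296) or control 1 (0.0259), as were Tmem100 without knockout 1 (0.0456) and Sostdc1 without control 1 (0.0434). Nog rested on 7 to 71 counts a library, which limits its precision.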
